A study of Rattus norvegicus with 23 samples.

Results

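Bovine serum albumin is the carrier on which palmitate was given to the cells, so ZF4-SC that received albumin alone were set against ZF4-SC without addition (C) to see how far the carrier by itself went with another miR composition. The pair was chosen by label and run, not by its values: it is the ZF4-SC library of the albumin control and the ZF4-SC library of no agent in the lipid run, 2 of 23 libraries of the series. ZF4-SC are stem cells of the pelvic floor muscle (levator ani) of female Zucker fatty rats, an obese strain with the Lepr-fa mutation. The paper describes the strain as genetically diabetic and these donors as early diabetic. The cells were taken at 12 weeks of age and selected as Sca1-/CD34+/CD45-/CD11b-/CD31- cells. Both wells were kept in medium with fetal bovine serum, and the agent was present for 4 days, and such serum itself holds albumin. The amount of albumin added is not given in the sources used here. The other libraries set beside the pair were, in the same run, ZF4-SC with palmitate at 1 and 0.5 mM, with cholesterol at 100 and 50 mg/dl and with the cyclodextrin control (2 libraries). Also used were the untreated ZF4-SC of an earlier run with rat serum (the serum run), and ED-MDSC, stem cells from hind-limb muscle of male Zucker fatty rats of 12 weeks with early diabetes, with and without albumin. Some fits took in the rest of the run of ED-MDSC (the male run). These were ED-MDSC with lean or obese Zucker rat serum, cyclodextrin or cholesterol, and untreated LD-MDSC from aged males with late diabetes. An alternative fit took in all 14 female libraries, among them ZL4-SC of the lean strain and cells with rat serum. Each side of the pair is 1 library, so the ratios have no replicate check.

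MicroRNAs (miRs) are RNAs of about the length of a short oligonucleotide that guide the Argonaute protein to messenger RNAs and lower their translation or stability. The target is read mainly through the seed, bases 2 to 8 from the 5′ end, so miRs with 1 seed share many targets even when they are transcribed from different chromosomes. A hairpin precursor gives 2 possible miRs, the 5p and the 3p arm, of which 1 is usually kept. Mesenchymal and smooth muscle cells are known for high miR-143 and miR-145, whereas the myomiRs miR-1, miR-133 and miR-206 mark differentiated skeletal muscle.

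The sequences are shown for 6 sets that the ratios turn on. The let-7 seed and the miR-25/miR-92 seed had all members on 1 side of 1, the miR-99b/miR-100 seed holds miRs of the highest level, the miR-148/miR-152 and miR-17 seeds had members on both sides, and the 2 arms of the miR-221 hairpin lay on opposite sides. Capitals mark the seed, and the sequences are the mature forms of RefSeq (build GRCr8), where 217 of the 244 miRs of the comparison were found.
let-7f-5p: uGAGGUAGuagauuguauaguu
let-7g-5p: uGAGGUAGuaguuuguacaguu
let-7d-5p: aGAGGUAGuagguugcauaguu
miR-25-3p: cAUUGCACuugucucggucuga
miR-92a-3p: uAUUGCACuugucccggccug
miR-92b-3p: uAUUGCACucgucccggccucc
miR-99b-5p: cACCCGUAgaaccgaccuugcg
miR-100-5p: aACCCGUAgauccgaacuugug
miR-148a-3p: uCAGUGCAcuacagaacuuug
miR-148b-3p: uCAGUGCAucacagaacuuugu
miR-152-3p: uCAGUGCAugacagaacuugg
miR-17-5p: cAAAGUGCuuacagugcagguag
miR-20a-5p: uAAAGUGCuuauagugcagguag
miR-93-5p: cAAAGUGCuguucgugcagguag
miR-106b-5p: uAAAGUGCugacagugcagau
miR-221-5p: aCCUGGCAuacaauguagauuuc
miR-221-3p: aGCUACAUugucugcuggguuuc

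Some of these miRs are close copies of each other. Counted from the 5′ end, let-7f-5p and let-7g-5p differ at 2 of 22 bases, miR-148b-3p differs from miR-148a-3p and from miR-152-3p at 2 of 21 bases each, and miR-99b-5p differs from miR-100-5p at 4 of 22. How a read that could belong to more than 1 miR was assigned is not given in the sources used here, so values of near copies are uncertain to that extent. In GRCr8, miR-148b-3p lies at chr7:136299930-136299951 (plus strand) within the span of Copz1, and miR-152-3p at chr10:82329435-82329455 (plus strand) within the span of Copz2, which is the paralog of Copz1. The let-7g-5p sequence lies at chr8:115701026-115701047 (plus strand) within the annotated spans of Wdr82 and Rpl29. The miR-25-3p, miR-93-5p and miR-106b-5p sequences lie together on chromosome 12 between 22156652 and 22157123 (minus strand) within Mcm7, a gene of the replication helicase. The strand of the host gene was not compared.

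The untreated library held 4395515 reads assigned to miRs and the albumin library 4783062, 1.09 times as many. Of 792 entries, 417 had no read in either library, 35 had reads only in the untreated and 41 only in the albumin library. No entry seen in 1 library alone had more than 29 reads. The comparison used the 244 miRs that averaged 10 or more reads over both libraries, which held 99.99% of the reads of each. The other 6 libraries of the lipid run held 104902 to 4770210 reads. Intervals on ratios are exact (Clopper-Pearson) 95% intervals, which cover counting error only.

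The miR composition was that of C in its main lines. The same 3 miRs led both libraries, miR-143-3p, miR-99b-5p and miR-10a-5p, with 63.4% of the reads in C and 60.7% with albumin. The first of them, miR-143-3p, the miR of contractile smooth muscle, made 282 per 1000 reads in C and 218 with albumin, a ratio of 0.773 (interval 0.771 to 0.775). In the albumin library miR-99b-5p took the first place, with 221 per 1000 against 186 in C, a ratio of 1.19. The level of miR-10a-5p, encoded among the Hox genes, was 167 per 1000 in C and 168 with albumin. The largest ratio among the 15 most abundant miRs was that of miR-99a-5p, which is known to act on mTOR, with 117 per 1000 in C and 161 with albumin (ratio 1.38, interval 1.37 to 1.38). The lowest was that of miR-22-3p, known from growth of heart muscle, with 5.16 against 3.01 per 1000 (ratio 0.582).

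**Figure D1:**
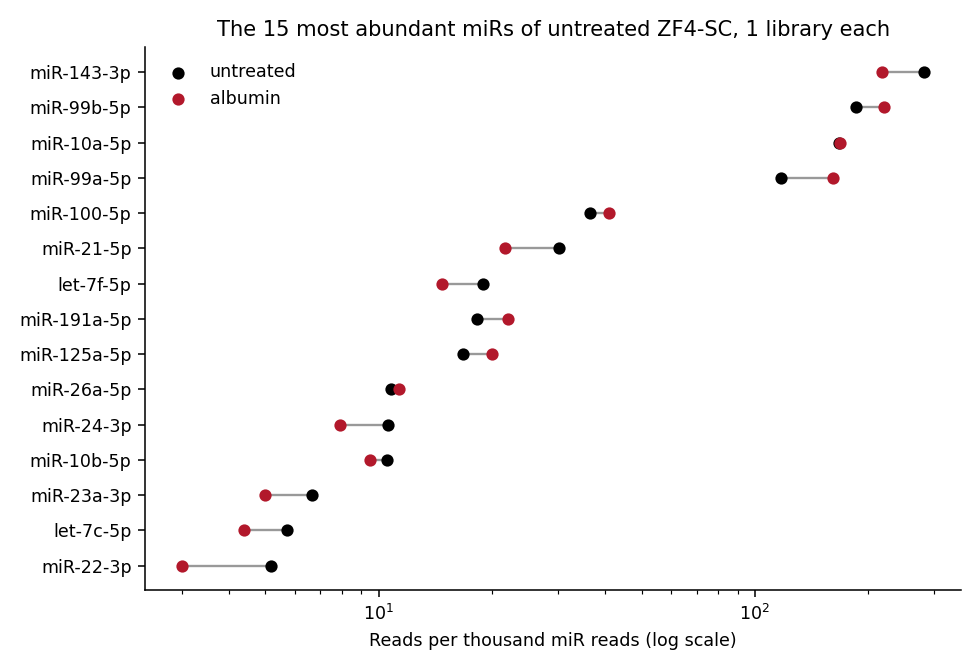
Reads per 1000 miR reads (log scale) of the 15 most abundant miRs of untreated ZF4-SC, in the untreated library (black) and the albumin library (red), 1 library each. The points of miR-10a-5p coincide at 167 and 168 per 1000, whereas miR-143-3p lies lower and miR-99a-5p and miR-99b-5p lie higher with albumin.

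Of the 15 most abundant miRs, those with a ratio above 1 were miR-99a-5p, miR-99b-5p, miR-100-5p, miR-125a-5p, miR-191a-5p, miR-26a-5p and miR-10a-5p. The miR-99/miR-100/miR-125 family as a whole had a ratio above 1 for 6 of 8 measured members, with a median of 1.16 beside a median of 0.771 over all 244 miRs, and 7 of 8 lay above 1 with TMM factors. It made 357137 reads per 1000000 (CPM) in C and 444483 with albumin. Besides miR-143-3p and miR-22-3p, those below 1 were miR-21-5p (0.716), a miR linked to growth and fibrosis, miR-24-3p (0.748), miR-23a-3p (0.749), let-7f-5p (0.779), let-7c-5p (0.768) and miR-10b-5p (0.901). The miR-23/miR-27/miR-24 clusters are transcribed together, and their miR-27 restrains the fat-cell factor PPARG. All 9 measured members had ratios below 1, from 0.475 to 0.961, as had 177 of all 244 miRs. With TMM factors 4 of the 9 lay above 1.

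Where the ratio of 1 lies depends on the scaling. TMM factors, which set the bulk of miRs to no difference, shift all log2 ratios upward by 0.33, a factor of 1.26. By library totals 177 of 244 miRs had a ratio below 1, and with TMM factors 126 had. Of the 38 miRs named as the most abundant or the most different, 1 came to lie on the other side of 1 with TMM factors, namely miR-10b-5p (1.13 in place of 0.901).

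At a ratio of at least 2, 7 of the 244 miRs were higher with albumin (2.87%), and at a ratio of at most 0.5, 43 were lower (17.6%). With TMM factors these counts were 18 higher and 29 lower. The miRs beyond 2-fold were mostly rare ones. Among the 113 miRs with a mean of 10 to 100 reads, 6 were higher and 30 lower, and the interval of 67 of the 113 held a ratio of 1. Among the 68 miRs with a mean of 100 to 1000 reads, 1 was higher and 12 were lower. Of the 36 miRs with 1000 to 10000 reads, 1 (let-7g-5p) was lower, and of the 27 with more, all lay within 2-fold. These 27 miRs held 96.2% of the reads of C and 96.7% with albumin. The median ratio was 0.734, 0.696, 0.911 and 0.961 in these classes in order. The interval lay wholly beyond 2-fold for 2 miRs above and 17 below. The 2 above passed the filter only through their reads with albumin, and some of the 17 below only through their reads in C. A filter on the mean of the pair favours such miRs, so these counts are a description.

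**Figure D2:**
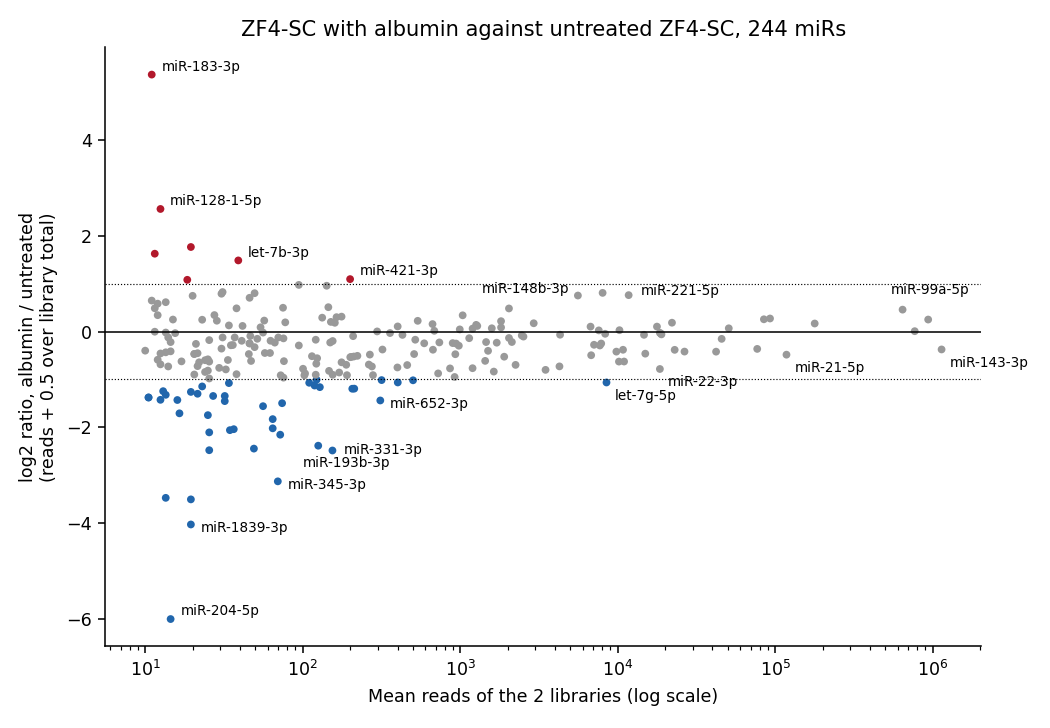
The log2 ratio of albumin to untreated ZF4-SC (0.5 reads added, over library totals) for 244 miRs against the mean reads of the 2 libraries (log scale), with dotted lines at 2-fold and colours for the 7 miRs higher (red) and the 43 lower (blue). The points beyond the lines crowd at the left, under 1000 reads, with let-7g-5p as the exception.

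The miR with the lowest ratio among those averaging 100 or more reads was miR-331-3p, with 259 reads in C and 50 with albumin (58.9 and 10.5 CPM, ratio 0.177, interval 0.128 to 0.241). The other 6 libraries of the run had 0 to 15.7 CPM, and the untreated library of the serum run 34.8. The untreated library of the lipid run was thus the highest of these 9. The next, miR-193b-3p, had 47.3 and 8.99 CPM (ratio 0.190, interval 0.134 to 0.265). Among the other libraries of the run miR-193b-3p had no read in 2, 3.34 to 16.4 CPM in 3 and, on 4 reads, 38.1 CPM with palmitate at 1 mM. For miR-652-3p, 444 and 178 reads were counted (ratio 0.368, interval 0.308 to 0.439). These 3 ratios stayed under 0.5 with TMM factors (0.223, 0.238 and 0.462).

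The other 9 of the 12 lowest ratios lay between 0.437 and 0.495. They were the predicted entry p-miR-25-1__p-miR-25-2, miR-149-5p, miR-345-5p, miR-34b-3p, miR-27b-5p, miR-1839-5p, let-7g-5p, miR-31a-5p and miR-328a-3p, and all lay above 0.5 with TMM factors, up to 0.622. In miR-34b-3p (159 and 79 reads) the list holds a miR known as a target of p53. In miR-31a-5p (149 and 73.4 CPM) it holds one that restrains the myogenic factor Myf5. The untreated library had the highest level of all 8 libraries for 9 of these 12 miRs and the albumin library the lowest for 2. Over all 244 miRs the untreated library was highest for 40 and the albumin library lowest for 33. The 12 were chosen by their ratio to that untreated library, so its place among the 8 is a description.

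Among miRs under a mean of 100 reads, miR-345-3p had 28.2 and 3.14 CPM (ratio 0.111, interval 0.060 to 0.191), alongside the other arm of its hairpin, miR-345-5p, with 39.4 and 17.6 CPM. For miR-204-5p 29 reads were counted in C and none with albumin, which is at least 10.5-fold lower when 3 reads are taken as the limit for a count of 0. Its level was 6.60 CPM in C, and the limit with albumin was 0.627 CPM. A like pattern was seen for miR-1839-3p (37 and 2 reads), miR-324-3p (25 and 2) and miR-150-5p (36 and 3), which were chosen after their values were seen.

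On the higher side, miR-421-3p was the only miR averaging 100 or more reads to lie past 2-fold. It had 120 reads in C and 280 with albumin (27.3 and 58.5 CPM, ratio 2.14, interval 1.73 to 2.68, and 2.69 with TMM factors). The untreated ZF4-SC of the serum run had 74.1 CPM of miR-421-3p, above both libraries of the pair. The second was miR-106b-3p, with 91 and 193 reads (ratio 1.95, interval 1.51 to 2.53). Of the well-counted miRs, miR-148b-3p had 5519 and 10528 reads (ratio 1.75, interval 1.70 to 1.81), miR-221-5p had 8252 and 15233 (1.70) and miR-92a-3p, of the growth-linked miR-17/miR-92 cluster, had 3943 and 7238 (1.69). All 3 were past 2-fold with TMM factors (2.20, 2.13 and 2.12). Next came miR-92b-3p (1.43), miR-30e-5p (368 and 515 CPM), miR-99a-5p (1.38), miR-423-5p (1.27), miR-3586-3p (1.24), miR-484 (1.23) and miR-674-3p (1.23). For the last 2 the interval held 1, with 0.986 and 0.955 as the lower bounds. In untreated ZF4-SC of the lipid run, 7 of these 12 miRs had the lowest level of the 8 libraries, as had 22 of all 244. Since the 12 were chosen by their ratio to that library, this too is a description.

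**Figure D3:**
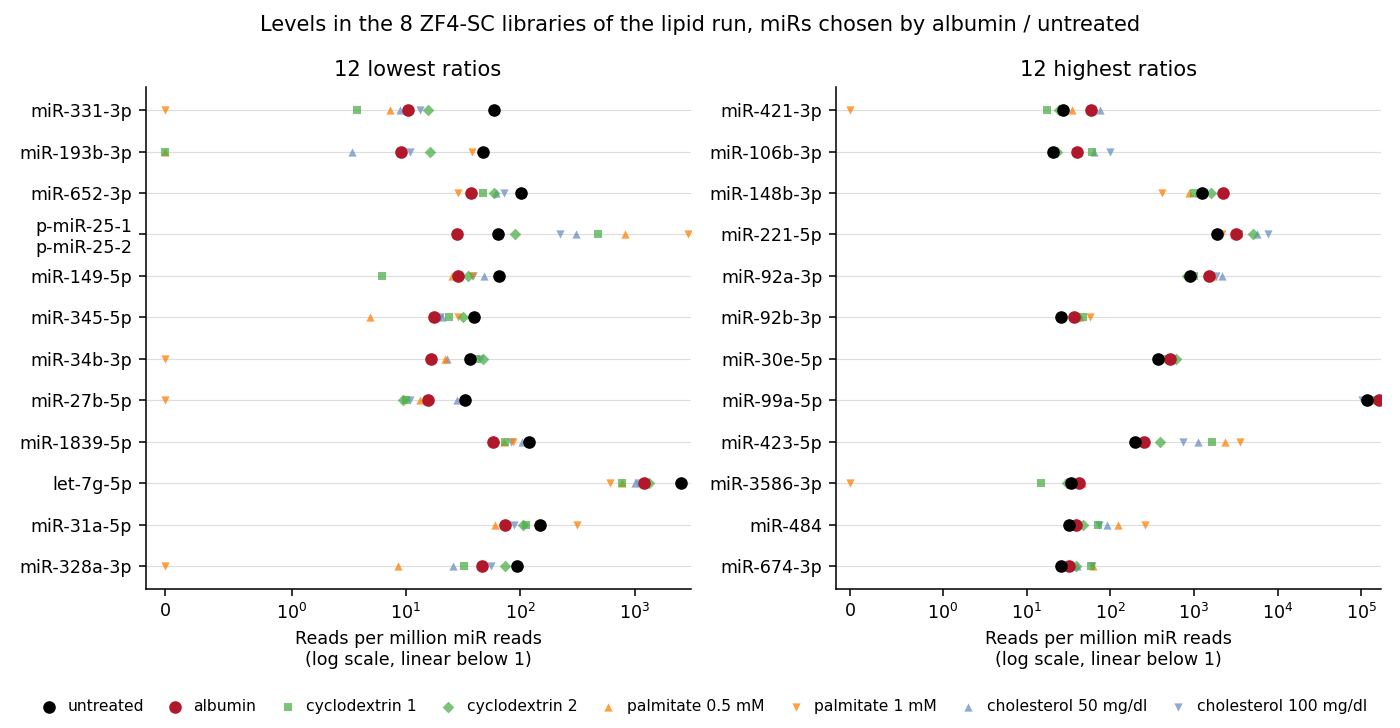
Reads per 1000000 miR reads (log scale, linear below 1) in the 8 ZF4-SC libraries of the lipid run, for the 12 miRs with the lowest (left) and the 12 with the highest (right) ratio of albumin to untreated among those averaging 100 or more reads. The black points of the untreated library lie at the right end of 9 rows on the left and at the left end of 7 rows on the right, and the red points of albumin mostly lie among the other libraries.

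The other 6 miRs past 2-fold on the higher side had at most 59 reads in either library. They were miR-183-3p, which had no read in C and 22 with albumin, at least 6.74-fold higher by the same limit, miR-128-1-5p (3 and 22 reads, interval of the ratio 2.03 to 35.2), miR-541-5p (8 and 31), miR-9a-5p (5 and 18), let-7b-3p (19 and 59) and miR-409a-5p (11 and 26). Both miR-9 and miR-128 are best known from neurons. The list of neural miRs had 2 of 6 measured members past 2-fold above and 1 below, beside 2.87% and 17.6% of all miRs. The 2 higher ones, miR-9a-5p and miR-128-1-5p, had few reads in both libraries. They passed the filter only through their reads with albumin, as did miR-183-3p and miR-541-5p, so the 2 of 6 is a description.

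Within the families the data held both joint and split patterns. Of the 22 seeds shared by at least 2 measured miRs (59 miRs), 12 had all members below 1, 3 had all above 1 and 7 had members on both sides. With TMM factors these were 3, 6 and 13, so most of the joint lower ratios followed the scaling. The 3 seeds that stayed wholly below 1 were those of miR-29a-3p and miR-29b-3p, miR-132-3p and miR-212-3p, and miR-34a-5p and miR-34c-5p.

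The let-7 seed had 7 measured miRs, all below 1 by library totals, as were 177 of all 244. With TMM factors 1 of the 7 (let-7d-5p) lay above 1. Let-7 miRs hold back growth genes such as Hmga2 and the Ras genes. Together the 7 made 34.8 per 1000 reads in C and 26.1 with albumin. The most abundant, let-7f-5p, had 83282 and 70574 reads, a ratio of 0.779. At the low end was let-7g-5p with 11165 and 5818 reads (ratio 0.479, interval 0.464 to 0.494), and at the high end let-7d-5p with 4223 and 4394 (0.956). A part of the difference between members does not depend on scaling, since let-7g-5p made 7.30% of the reads of this seed in C and 4.66% with albumin. In the other 6 lipid-run libraries let-7g-5p made 2.08% to 4.09%, and 6.52% in C of the serum run, so the 2 untreated libraries had the highest shares.

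The miR-25/miR-92 seed lay above 1 in all 3 measured miRs, by library totals and with TMM factors. Of all 244 miRs 67 lay above 1 by library totals and 118 with TMM factors. With 1122 and 1276 reads miR-25-3p had a ratio of 1.05, whose interval held 1 (0.964 to 1.13). The ratio of miR-92a-3p was 1.69 and that of miR-92b-3p 1.43. The miR-29 family had 3 measured members with ratios of 0.501 to 0.546, below 1 as were 177 of all 244 miRs. Of its 3 members, miR-29a-3p and miR-29b-3p share the seed known to repress collagens, and miR-29c-5p does not have it. The most abundant, miR-29a-3p, had 909 and 540 reads. The miR-132/miR-212 hairpins, which CREB induces, had 3 of 4 arms at or below 0.5 (median 0.459), where 17.6% of all miRs were, and 1 of 4 at or below 0.5 and 1 of 4 above 1 with TMM factors, with miR-212-3p at 99 and 30 reads. All 7 measured miRs of the list of miR-34 and p53-linked miRs were below 1 (median 0.589), as were 177 of all 244, and 2 of them were past 2-fold, where 17.6% of all miRs were, and 2 of the 7 lay above 1 with TMM factors. Here miR-34a-5p had 82 and 30 reads and miR-34c-5p 1461 and 936.

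**Figure D4:**
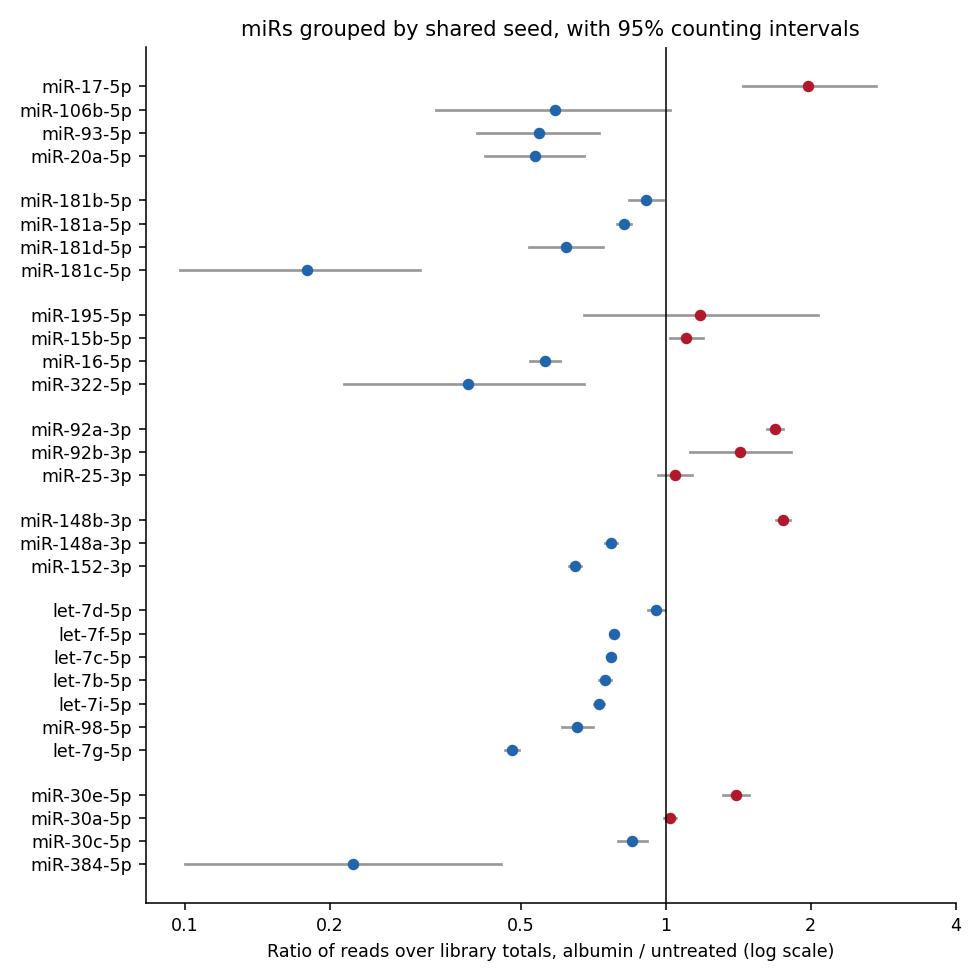
The ratio of albumin to untreated ZF4-SC (log scale) with exact 95% counting intervals for miRs in the 7 seed families of at least 3 measured members, red above and blue below 1. All let-7 points lie left of 1 and all miR-25/miR-92 points right of it, whereas miR-148b-3p and miR-17-5p lie on the other side of 1 from their seed mates.

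The miR-148/miR-152 seed split. These miRs act on the DNA methyltransferase Dnmt1. The reads of miR-148b-3p were 5519 in C and 10528 with albumin, those of miR-148a-3p 11774 and 9852 (ratio 0.769) and those of miR-152-3p 11950 and 8427 (0.648). The share of miR-148b-3p among the 3 was 18.9% in C and 36.5% with albumin. It was 31.1% and 36.0% in the cyclodextrin duplicates, 19.9% and 7.40% with palmitate at 0.5 and 1 mM, 21.8% and 23.8% with cholesterol at 50 and 100 mg/dl and 22.5% in C of the serum run. The albumin library was thus at the top of this range and beside a cyclodextrin library. In ED-MDSC the share went the other way, with 35.3% untreated and 17.8% with albumin.

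A split was also seen for the miR-17 seed. The level of miR-17-5p was 13.7 CPM in C and higher with albumin (ratio 1.98, interval 1.44 to 2.73), whereas miR-20a-5p had 44.6 and 23.8 CPM (0.535), miR-93-5p 130 and 77 reads (0.544) and miR-106b-5p 36 and 23 reads (0.587, interval 0.332 to 1.02). The miR-17-5p share of the 4 was 14.2% in C and 37.6% with albumin, and 46.3% of 67 reads in the first and 12.6% of 198 in the second cyclodextrin library, so that these libraries of 1 label were further apart than the pair. The miR-181 seed, whose miRs accompany muscle differentiation, had all 4 measured members below 1, as were 177 of all 244 miRs. Of the 4, miR-181a-5p (8153 and 7259 reads) and miR-181b-5p lay above 1 with TMM factors. The lowest was miR-181c-5p (82 and 16 reads, ratio 0.179).

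The 2 arms of a hairpin come from 1 precursor, and the share of an arm among the reads of its hairpin does not depend on the scaling, whereas the side of 1 on which an arm lies does. Of the 56 hairpins with both arms measured, both arms were below 1 in 32, both above in 7 and on opposite sides in 17. Set against the median of all miRs in place of 1, both arms were on the same side in 30 of the 56. Across these hairpins the log2 ratios of the 2 arms had a Spearman correlation of 0.24 (Pearson 0.22), as a description of arms that share their libraries. Of the opposite pairs, miR-221 is described here; its 3p arm restrains the cell-cycle inhibitor p27. Its 5p arm had 8252 and 15233 reads and its 3p arm 4286 and 2681, with ratios of 1.70 and 0.575 (interval 0.548 to 0.603). The 5p arm made 65.8% of the hairpin's reads in C and 85.0% with albumin. The share of the 5p arm was 71.5% and 82.2% in the cyclodextrin libraries, 76.6% and 65.4% with palmitate at 0.5 and 1 mM, 81.1% and 82.1% with cholesterol at 50 and 100 mg/dl and 84.6% in C of the serum run. The untreated library of the lipid run was thus low, beside palmitate at 1 mM. In ED-MDSC the share was 84.4% without and 77.2% with albumin. The miR-199a hairpin, which lies in the Dnm3os transcript of mesenchymal cells, had 58.2% of its reads in the 5p arm in C and 67.8% with albumin, 59.9% and 46.1% with palmitate at 0.5 and 1 mM, 64.1% and 65.3% with cholesterol at 50 and 100 mg/dl, 61.6% and 66.2% in the cyclodextrin libraries and 76.2% in C of the serum run. In ED-MDSC it was 74.9% without and 71.6% with albumin.

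The miR-143/miR-145 hairpins had 4 measured arms with ratios of 0.773 to 1.14, with 2 on each side of 1. Of 15 myomiR entries 2 passed the filter, miR-206-3p with 26 and 25 reads and miR-499-5p with 13 and 14, and the others had no read. Outside this list, miR-1b, which has the miR-1 seed and was chosen after its values were seen, had 31 reads in each library. An entry at 0 need not mean an absent miR, since let-7a-5p and miR-125b-5p, which many cells hold in plenty, were at 0 in both libraries too and are not among the measured let-7 and miR-125 members. The miR-200 family of epithelia had 14 and 6 reads over 9 entries, miR-122 of liver 2 and 0, and the pluripotency miRs none in either library. The endothelial miR-126a-3p had 100 and 89 reads and its 5p arm 102 and 27. Of the 11 blood-cell entries 4 passed the filter. Their most abundant miR, miR-486, had 1482 and 1693 reads (ratio 1.05, interval 0.979 to 1.13), whereas the erythroid miR-451-5p had 24.3 and 8.57 CPM (0.352) and the lymphoid miR-150-5p 8.19 and 0.627 CPM (0.077). Summed, the blood-cell list made 1658 reads in C and 1758 with albumin (368 CPM), of which miR-486 alone made 1482 and 1693, so the sum mainly follows that miR in the pair. It made 5279 and 327 CPM in the cyclodextrin duplicates, 45722 and 10191 with palmitate at 0.5 and 1 mM, and 10865 and 911 with cholesterol at 50 and 100 mg/dl. In each of the 3 agents with 2 libraries at least 1 was thus far above the pair, and the part of this in the spread between libraries was not tested.

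The medians of the other lists lay on both sides of 0.771, the median of all 244 miRs. The median was 0.738 for 10 measured arms of the let-7 and miR-98 hairpins, 0.980 for 9 of the miR-30 family, 0.713 for 6 of the miR-181 family, 0.649 for 3 of miR-199/miR-214, 1.09 for 10 of the miR-17/miR-92 clusters, 0.889 for 10 of the miR-322/miR-503 cluster, 0.769 for 5 of the miR-148/miR-152 family, 1.02 for 4 of miR-221/miR-222, 0.901 for 5 of miR-10/miR-196, 0.804 for both arms of miR-21, 0.837 for 3 of the miR-26 family, 0.919 for 5 of the miR-15/miR-16 family, 1.13 for 3 of miR-183/miR-96/miR-182, 0.384 for both arms of miR-31, 0.757 for 3 of miR-140/miR-455 and 0.670 for 5 of the miR-532/miR-660 cluster. Of the 91 entries of the imprinted Dlk1-Dio3 cluster 6 passed the filter, with 2 past 2-fold above and 1 below on at most 38 reads, beside 2.87% and 17.6% of all miRs. Of the 2 above, miR-541-5p passed the filter only through its reads with albumin. Of the miR-224/miR-452 list 1 miR passed the filter, with a ratio of 0.408, and of miR-204/miR-211 only miR-204-5p. Among lipid-linked miRs miR-103-3p had a ratio of 1.01 and miR-342-3p 0.710 (7657 and 5919 reads), while miR-122-5p had 2 reads in the pair. Of the inflammation-linked miRs, miR-146b-5p had 18278 and 19345 reads (0.973), miR-146a-5p 34 and 65 (1.76) and miR-155-5p 130 and 75 (0.530). No read of miR-210, the miR of hypoxia, was counted in either library.

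The only libraries of 1 label and 1 run are the 2 of the cyclodextrin control, and the ratio between them shows how far such libraries can lie apart. Over the same 244 miRs, 79 were at least 2-fold higher in the second (32.4%) and 44 at least 2-fold lower (18%). The first of these libraries held 803975 reads and the second 4770210, so rare miRs were less well counted there than in the pair. Over the 78 miRs counted 100 times or more in all 4 libraries, the SD across miRs of the log2 ratio was 0.40 for albumin to untreated and 0.88 for the cyclodextrin duplicates, with 2 and 11 miRs beyond 2-fold. The difference with albumin was larger than that between the duplicates, in size, for 75 of the 244 miRs, for 8 of the 12 lowest and for 7 of the 12 highest ratios. The 12 lowest and 12 highest were chosen by their ratios in this pair, which favours a larger difference there, so their counts are a description. For let-7g-5p the second cyclodextrin library was 1.75 times the first, for miR-148b-3p 1.62 times and for miR-221-5p 1.46 times.

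Between the untreated ZF4-SC of the lipid run and those of the serum run, an SD of the log2 ratio of 0.99 was found over the 131 miRs averaging 100 or more reads, against 0.55 for albumin to untreated. The run and the culture cannot be told apart there. Over these miRs the levels of C and albumin had a Spearman correlation of 0.968, across miRs of 2 libraries.

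**Figure D5:**
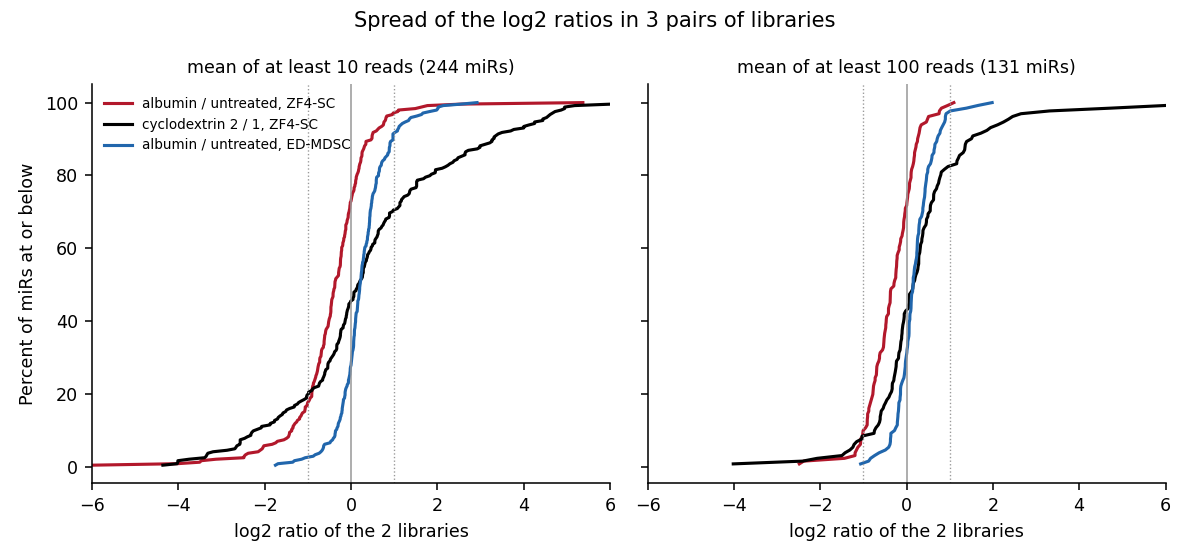
Cumulative percent of miRs by the log2 ratio of 2 libraries, for albumin to untreated in ZF4-SC (red), the cyclodextrin duplicates (black) and albumin to untreated in ED-MDSC (blue), over 244 miRs (left) and over the 131 averaging 100 or more reads in the ZF4-SC pair (right), with dotted lines at 2-fold. The black curve is the widest, the red one lies left of 0 and the blue one right of it.

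A test of albumin against C was fitted in edgeR on the 8 libraries of the lipid run, in which the 2 libraries each of palmitate, cholesterol and cyclodextrin give the spread and the single libraries are assumed to vary like them. The 2 doses of palmitate and of cholesterol count as replicates in it. Of 244 miRs 0 passed an adjusted p of 0.05 (0%), by edgeR's quasi-likelihood test with Benjamini-Hochberg adjustment, the lowest adjusted p being 0.995. At an unadjusted p under 0.05 there was 1 miR, miR-183-3p, and DESeq2 called 0 with 1 at an unadjusted p under 0.05. The filter was passed by miR-183-3p only through its reads with albumin. For miR-148b-3p the fitted log2 fold change was 1.16 with an SE of 0.69, for miR-221-5p 1.11 with an SE of 0.56, for miR-92a-3p 1.10 with an SE of 0.51 and for miR-99a-5p 0.81 with an SE of 0.40. Each SE printed with an edgeR result, here and below, was derived from the fold change and the F statistic of its test, not estimated from replicates of the pair.

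The albumin and palmitate libraries share the untreated library as their reference, so their values are given side by side only. For let-7g-5p the level was 2540 CPM in C, 1216 with albumin, 781 with palmitate at 0.5 mM and 610 at 1 mM, and it was 769 and 1344 in the cyclodextrin libraries. For miR-21-5p the ratio to C was 0.716 with albumin and 0.434 and 0.406 with palmitate at 0.5 and 1 mM. In miR-92a-3p it was 1.69 with albumin and 1.91 and 1.78 with palmitate. The ratio of miR-148b-3p was 1.75 with albumin and 0.688 and 0.326 with palmitate. For miR-22-3p it was 0.582 with albumin and 1.26 and 4.35 with palmitate. For miR-423-5p it was 1.27 with albumin and 11.9 and 17.8 with palmitate, and 8.21 and 1.96 in the cyclodextrin libraries. Set against albumin in place of C, palmitate at 0.5 mM gave 0.642 for let-7g-5p and 0.393 for miR-148b-3p. The palmitate libraries held 827456 and 104902 reads.

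The other albumin control of the series, that of ED-MDSC, shares no library with this pair. Its 2 libraries held 3840523 reads without and 1959948 with albumin, in another run. The cells came from males with early diabetes and were isolated by another procedure (pre-plating and selection as Sca1+/CD34+ cells). Both stem cells come from Zucker fatty rats, and the paper describes the hyperglycemia of the females as milder. Sex, degree of disease, muscle, isolation and run thus cannot be told apart there. Over the 220 miRs averaging 10 or more reads in each pair, 17 were at least 2-fold higher with albumin in ED-MDSC (7.73%) and 3 lower (1.36%), and the median ratio was 1.15 against 0.771 in ZF4-SC. With TMM factors the median of ED-MDSC was 1.00. Across the 220 miRs the log2 ratios of the pairs had a Pearson correlation of -0.09 and a Spearman correlation of -0.02. Of the 39 of them at least 2-fold lower in ZF4-SC, 27 had a ratio above 1 and 12 below 1 in ED-MDSC, and with TMM factors 24 lay above 1. Over all 220 miRs 158 lay above 1 there, and 111 with TMM factors. By library totals the share of the 39 was thus near that of all miRs. With TMM factors it was higher, at 24 of 39 beside 111 of 220, which was not tested. Of the 12 lowest ratios of well-counted miRs, 3 were below 1 in ED-MDSC too, let-7g-5p (0.772), miR-1839-5p (0.824) and miR-34b-3p (0.899). Of the 12 highest, 7 were above 1 there, and 5 with TMM factors, which is again to be read beside the 158 and 111 of all 220.

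Single miRs differed in how the pairs compared. The level of miR-21-5p had a ratio of 0.716 in ZF4-SC and 0.712 in ED-MDSC, and let-7f-5p 0.779 and 0.767. These values lie together by library totals only, since TMM factors shift the log2 ratios by 0.33 in ZF4-SC and by -0.19 in ED-MDSC. Levels of miR-125a-5p were 16.8 and 20.1 per 1000 in the ZF4-SC pair, and its ratio in ED-MDSC was 2.02. The ratio of miR-484 was 1.23 and 1.89. On opposite sides were miR-143-3p (0.773 and 1.30), miR-148b-3p (1.75 and 0.479), miR-221-5p (1.70 and 0.644) and miR-99a-5p (1.38 and 0.881). Of the 2 tests that follow, the first took its spread only from the duplicated agents of ZF4-SC, since each male-run group holds 1 library. The second had 1 residual degree of freedom, and its spread is the difference in albumin response between the 2 stem cells, not that of replicates. The test of the difference between the albumin effects was run in edgeR on the 15 libraries of the lipid and male runs, with their other agents and LD-MDSC. It called 0 of 220 miRs (0%), with 2 at an unadjusted p under 0.05. These were miR-148b-3p (log2 difference 2.73, SE 1.08) and miR-221-5p (2.25, SE 0.91), both with an adjusted p of 0.999. With the stem cell as a block and the 4 libraries alone, edgeR called 0 of 220 miRs (0%) for albumin against C, with 9 higher and 4 lower at an unadjusted p under 0.05. The lowest adjusted p was 0.082, that of miR-486, whose ratio was 1.05 in ZF4-SC and 3.96 in ED-MDSC.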

How the data were processed

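Small RNA of the cells was made into libraries with a Norgen Biotek kit and sequenced by Norgen Biotek, and the authors deposited raw whole-number counts of reads per miR of Sanger miRBase Release 18.0, with no scaling. The aligner, trimming and treatment of reads that match several miRs are not given in the sources used here. For the RNA the labels give a Norgen kit and the methods mirVana. For the muscle of male rats the labels give quadriceps and the methods gastrocnemius.

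Counts were divided by the library total, and ratios of albumin to C were computed for miRs averaging 10 or more reads, with exact intervals from scipy 1.17.1. List medians had 0.5 reads added. Tests used edgeR 4.0.16 (quasi-likelihood, TMM factors, Benjamini-Hochberg to 0.05) and, as an alternative, DESeq2 1.42.0. The edgeR test of the lipid run was also run on simulated data, the others were not. The outcome of that run is not given here, so a count of 0 does not show an absence of differences. Libraries held 1959948 to 6492161 reads in the pairs and the serum-run control. R 4.3.3, limma 3.58.1, python 3.11.15, pandas 2.3.3 and matplotlib 3.10.9 were used too. Nothing says that libraries of 1 agent came from separate cultures, so p-values measure only the spread between these libraries. Labels share no replicate number across the agents compared.

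The members, the 35 lists of miR families and cell types and the tests were chosen with earlier results of these data known. Named miRs are the 15 most abundant of C, the 12 highest and 12 lowest ratios among miRs averaging 100 or more reads, the 12 smallest adjusted p under 0.05 in each direction of each test, and measured members of the lists, whose patterns were spelled as in the files. Alternatives were other filters, scalings and pseudocounts, another untreated library and leaving out each library of a duplicated agent.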

Additional observations from a re-analysis of the deposited data

How the results depend on the processing

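By library totals, 7 miRs were at least 2-fold higher with albumin and 43 at least 2-fold lower. With a mean of at least 100 reads the counts were 1 and 13, with at least 50 reads 1 and 19, and with at least 1 read 56 and 96. TMM factors gave 18 and 29, DESeq2 size factors 19 and 25, and median centring 19 and 25. With the interval wholly beyond 2-fold they were 2 and 17, and the 2 had passed the filter only through their reads with albumin. With the untreated library of the serum run in place of that of the lipid run the counts were 12 and 114. TMM factors and at least 100 reads together, chosen after seeing the data, gave 5 and 3. For the filters and the interval, the alternative's own construction sets which miRs can count; the cause of the other moves was not tested.

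The edgeR test of albumin against C called 0 miRs under all 13 alternatives run, with lowest adjusted p from 0.282 to 1.00, and 0 in each of the 6 fits that left out 1 library (lowest and highest count 0 and 0). Where a duplicated agent is left with 1 library, it is assumed to vary like the others. The tests over both stem cells called 0 in their alternatives too. In the fit with the stem cell as a block the lowest adjusted p was 0.082 with TMM factors and 0.997 with library totals. Depth limits the miRs under 100 reads, for which the median interval spanned 3.35-fold. No paired analysis was possible because the agents share no replicate numbers in the labels, and the block named above is the stem cell, not a replicate.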
